A study of Oryza sativa Japonica Group with 6 samples.

Results

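The features described here were those that were on in one genotype and off in the other in the endosperm of rice at 7 days after pollination, when this tissue is filling with starch and storage protein. On and off were set on FPKM, a measure that divides a feature's reads by its length and by all reads of the library. A feature was taken when all 3 libraries of one genotype were under 1 FPKM and all 3 of the other were at 3 FPKM or more. Of 93655 features in the table, 50 met the rule, 30 on in the nf-yc11 mutant only and 20 on in the wild type (WT) only. Against the 16322 features that were at 3 FPKM or more in all libraries of a group, this was 0.184% and 0.123%, shares that the rule itself fixed and that carry no test. The 6 libraries were made from endosperm of WT, for which the series title names the japonica cultivar ZH11, and of the mutant named nf-yc11, with 3 libraries each at the same age. The labels give no mutated locus or allele, no number of mutant lines and no statement that replicates came from separate plants. The spread between libraries may therefore be technical.

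NF-Y is a trimeric transcription factor built of NF-YA, NF-YB and NF-YC subunits that binds CCAAT elements in promoters, and rice endosperm uses seed-specific NF-YB and NF-YC subunits during grain filling. A feature that is read in one genotype and nearly silent in another may be an annotated gene, a short non-coding locus or a transcript assembled from the reads. The table names its features by ID alone. IDs that begin with OS are RAP locus IDs, in which the digits after OS give the chromosome and the number rises along it, with gaps left for loci added later. Other IDs are written like Novel00754, and their features are called N features below. What the prefix EPlOSAG and the prefix of the N features stand for is not given in the sources used here. The RefSeq gene table used here, of assembly ASM3414082v1, hardly lists IDs of these kinds, so the members could not be looked up in it. They are called by their IDs and no function is given.

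The library totals behind the FPKM values, worked out from the steps between the values, ran from 14593215 to 21984785 reads. At these depths, 1 read on 1000 bases was worth 0.0455 to 0.0685 FPKM, so an off value under 1 FPKM could still hold many reads on a long feature. The feature paired from general knowledge with NF-YC11 (OS05G0304800, a symbol the gene table does not hold) was on in both genotypes, at 126 ± 3.07 FPKM (SD, n = 3) in WT and 109.7 ± 3.35 FPKM in nf-yc11. Its fall was called (log2 change −0.20, adjusted p = 0.0037, limma). The feature paired with NF-YC12 (OS10G0191900), likewise not in the gene table, stood at 755 ± 12.1 FPKM in WT and 192 ± 1.41 FPKM in nf-yc11, a log2 change of −1.97 with an adjusted p of 1.92e-07 by limma. NF-YB1 stood at 439 ± 14.7 FPKM in WT and 239.5 ± 4.42 FPKM in nf-yc11, lower by limma at an adjusted p of 7.93e-06 (log2 change −0.87). These levels do not tell which locus was altered, so the 3 libraries are called by their label. The tissue's defining genes were high in both genotypes. The starch synthase gene GBSSI stood at 1063 ± 19.5 and 608 ± 26.4 FPKM, and the glutelin storage protein gene GluA1 at 15725 ± 190.1 and 13400.1 ± 129 FPKM. Both were called lower in nf-yc11 by limma (log2 change −0.81, adjusted p = 1.39e-05, and −0.23, adjusted p = 0.000165). Of the other endosperm markers, GluA2 (log2 change −0.21, limma adjusted p = 0.000296) and AGPL2 (−0.52, limma adjusted p = 1.41e-05) were called lower too. RPBF was not called (limma adjusted p = 0.814). Markers of embryo and aleurone and of green maternal tissue were also read in every library, none near 0, and some moved with the genotype. Of 3 embryo and aleurone markers, OLE16, a symbol not in the gene table, rose from 2025 ± 13.4 to 2583 ± 117.5 FPKM (log2 change 0.35, limma adjusted p = 0.000298). RAB21 fell from 252 ± 5.60 to 227 ± 1.24 FPKM (log2 change −0.15, limma adjusted p = 0.0037), and OLE18, at 2302 ± 158 and 2442 ± 84.8 FPKM, was not called (limma adjusted p = 0.211). Of 2 green tissue markers, CAB1R fell from 438 ± 3.82 to 272 ± 7.14 FPKM (log2 change −0.68, limma adjusted p = 1e-05), and CAB2R, at 1107 ± 12.6 and 1143 ± 67.2 FPKM, was not called (limma adjusted p = 0.43). None of the markers was a member, and the part of such tissues in the members was not tested.

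**Figure D1:**
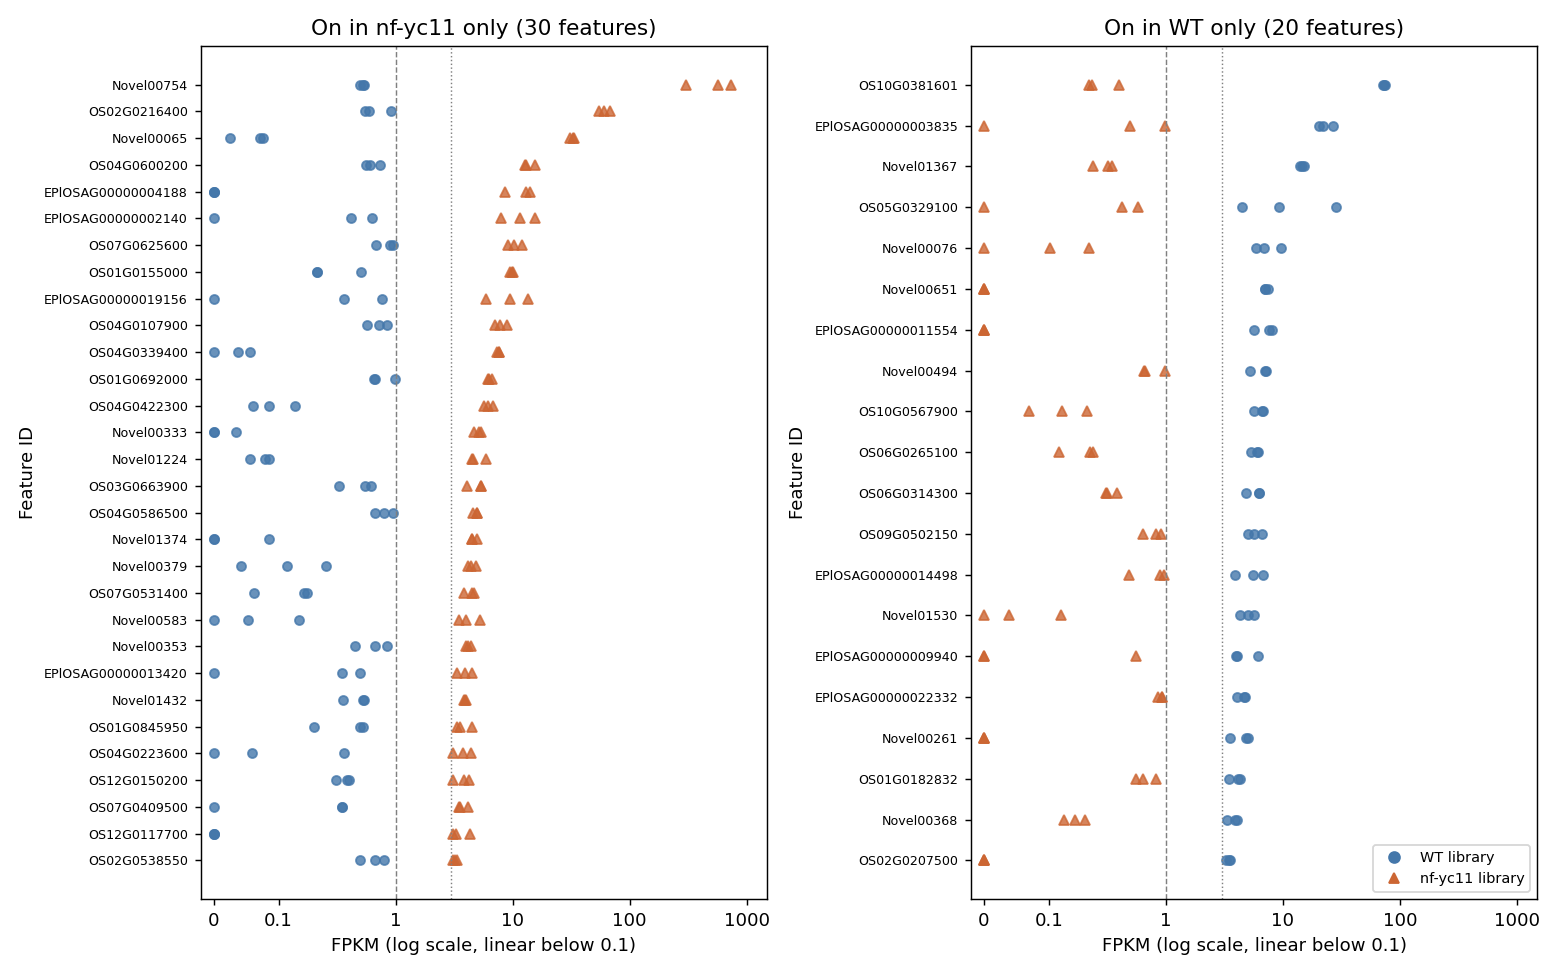
FPKM of all 50 members in each library, with the 30 features on in nf-yc11 only on the left and the 20 on in WT only on the right, sorted by their mean where on. The x axis is logarithmic and linear below 0.1, the dashed and dotted lines mark 1 and 3 FPKM, and most members lie under 10 FPKM where they are on while Novel00754 reaches 742 FPKM.

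Most members were weakly expressed even where they were on. The mean in the on group had a median of 4.98 FPKM for the members on in nf-yc11 only and 5.81 FPKM for those on in WT only, against 14.0 FPKM for the higher group mean over all features on in a group. Of the 30, 7 reached a mean of 10 FPKM and 3 a mean of 20 FPKM. Of the 20, 4 reached 10 FPKM and 2 reached 20 FPKM. Both directions thus held a few features far above the threshold and a long tail just above it. These on values are among those that chose the members. A feature near 3 FPKM needs a smaller contrast to meet the rule than a higher one, so the rule itself favours low on levels.

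The highest member was Novel00754, a feature of 257 bases. Lengths and read totals given here are the smallest that make the reads whole in every library. The true ones could be a multiple of them, above all for features with few reads. It stood at 0.531, 0.499 and 0.533 FPKM in the WT libraries and at 304, 566 and 742 FPKM in nf-yc11 replicates 1 to 3. All nf-yc11 libraries lay far above all WT libraries, but they differed among themselves by more than counting noise allows, with a coefficient of variation of 41.1%. In reads, 7 in WT stood against 6790 in nf-yc11, a ratio of 1040 per library total with an exact 95% interval of 504 to 2588. This interval and those below cover counting error only.

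The next members on in nf-yc11 only were OS02G0216400 on chromosome 2 and Novel00065. OS02G0216400 stood at 0.546, 0.909 and 0.598 FPKM in WT and at 54.6, 67.9 and 60.5 FPKM in nf-yc11, a ratio in reads of 91.1 (64.4 to 134). Novel00065 stood at 0.0251, 0.0707 and 0.0756 FPKM in WT and at 32.8, 33.2 and 31.2 FPKM in nf-yc11. Its nf-yc11 libraries were nearly level, with a coefficient of variation of 3.36%, and its WT libraries held 1, 2 and 2 reads against 936, 961 and 960. That gave a ratio of 613 (262 to 1888), whose width came from the few WT reads.

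OS04G0600200 on chromosome 4 followed, at 0.742, 0.610 and 0.559 FPKM in WT and at 12.7, 12.9 and 15.6 FPKM in nf-yc11. OS07G0625600 on chromosome 7 stood at 0.678, 0.954 and 0.893 FPKM in WT and at 9.23, 10.4 and 12.1 FPKM in nf-yc11. Its WT values were close to the limit of 1 FPKM, and its ratio in reads was 12.9 (8.43 to 20.7). A deeper contrast at a like level was shown by OS01G0155000 on chromosome 1, at 0.214, 0.503 and 0.215 FPKM in WT and at 9.48, 10.1 and 9.84 FPKM in nf-yc11.

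Among members on in nf-yc11 only, OS04G0339400 on chromosome 4 came near to silence in WT. Its WT values were 0.0368, 0 and 0.0555 FPKM, or 2 reads in all, against 7.67, 7.71 and 7.34 FPKM, or 455 reads, in nf-yc11. The ratio was 244 with an interval of 67.1 to 2020. OS04G0107900, also on chromosome 4, stood at 0.723, 0.566 and 0.847 FPKM in WT and at 7.75, 8.97 and 7.07 FPKM in nf-yc11, a ratio of only 11.1 (7.10 to 18.3). Within a few FPKM of each other where on, these members of chromosome 4 thus differed from WT by ratios of 244 and 11.1.

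The EPlOSAG members on in nf-yc11 only were short. EPlOSAG00000004188, of 139 bases, had no read in the WT libraries and stood at 14.2, 8.57 and 13.1 FPKM in nf-yc11. Against a floor of 3 reads over the WT group it was at least 28.9-fold higher, from 81 reads. EPlOSAG00000002140, of 110 bases, was at 0.414, 0 and 0.623 FPKM in WT and at 11.6, 7.98 and 15.5 FPKM in nf-yc11, on 63 reads. In all 4 EPlOSAG members on in nf-yc11 only, nf-yc11 replicate 2 was the lowest of its group. The nf-yc11 libraries stayed within counting noise except in EPlOSAG00000019156, at 13.6, 5.99 and 9.59 FPKM.

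Among the members on in WT only, OS10G0381601 on chromosome 10 was the highest. It stood at 72.8, 74.4 and 72.1 FPKM in WT and at 0.395, 0.234 and 0.219 FPKM in nf-yc11. The WT libraries were nearly level, with a coefficient of variation of 1.61%, the smallest among the 20. Reads fell from 3071 to 11, a ratio of 260 (145 to 522) of WT to nf-yc11. The next highest by mean on that side, EPlOSAG00000003835, stood at 23.1 ± 3.47 FPKM in WT.

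OS05G0329100 on chromosome 5 was on in WT at very unequal levels. WT replicates 1 to 3 stood at 4.50, 28.7 and 9.26 FPKM, and nf-yc11 replicates 1 to 3 at 0.419, 0 and 0.582 FPKM. The groups did not overlap, but its coefficient of variation in WT, 90.6%, was the largest among all 50 members. The IDs on both sides, named after their values were seen, were uneven within a group as well. OS05G0329001 was at 0.314, 5.05 and 0 FPKM in nf-yc11 replicates 1 to 3 and at most 0.113 FPKM in WT. OS05G0329200 stood at 7.67, 8.23 and 16.4 FPKM in WT and at 8.36, 8.85 and 26.8 FPKM in nf-yc11, so that replicate 3 was the highest in each group (log2 change 0.30 ± 0.46 SE, adjusted p = 0.628, limma). The libraries that stood out thus differed between these neighbours, and reads shared among similar copies cannot be told from separate expression in this table.

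The other OS members on in WT only lay near 6 FPKM or below. OS10G0567900 on chromosome 10 stood at 6.80, 5.69 and 6.65 FPKM in WT and at 0.210, 0.0691 and 0.130 FPKM in nf-yc11. OS06G0265100 on chromosome 6 stood at 6.15, 5.37 and 6.0 FPKM in WT and at 0.121, 0.239 and 0.224 FPKM in nf-yc11. Both held few reads in nf-yc11, 12 and 5 in all. OS06G0314300 on chromosome 6 was at 4.82, 6.28 and 6.24 FPKM in WT and at 0.313, 0.309 and 0.386 FPKM in nf-yc11. OS09G0502150 on chromosome 9 was at 5.67, 6.62 and 5.02 FPKM in WT and at 0.826, 0.901 and 0.645 FPKM in nf-yc11. With 56 reads left in nf-yc11 and a ratio of 7.33 (5.54 to 9.86), OS09G0502150 was lower there, but not silent.

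Among the N and EPlOSAG members on in WT only, Novel01367 had the most reads. It stood at 15.2, 13.9 and 14.5 FPKM in WT and at 0.321, 0.348 and 0.238 FPKM in nf-yc11, a ratio of 48.7 (33.7 to 72.9). Novel00076 stood at 9.58, 6.86 and 5.89 FPKM in WT and at 0, 0.220 and 0.103 FPKM in nf-yc11. EPlOSAG00000003835, of 128 bases, was at 22.0, 27.0 and 20.3 FPKM in WT and at 0.993, 0.490 and 0 FPKM in nf-yc11. The first nf-yc11 value lay just under the limit, although it stood for only 2 reads. EPlOSAG00000011554 rested on even less, since its 7.58, 8.01 and 5.71 FPKM in WT could be as few as 4, 3 and 2 reads on 24 bases, the smallest length that gives whole reads. With no read in nf-yc11, it was at least 2.80-fold higher in WT at that length, against a floor of 3 reads. This was the lowest such value among the 6 members with no read where off.

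The members just inside the threshold show how narrow it was. OS02G0538550 on chromosome 2 entered with 3.38, 3.07 and 3.25 FPKM in nf-yc11 against 0.663, 0.801 and 0.50 FPKM in WT, a ratio in reads of 4.91 (3.35 to 7.38), the smallest on that side. OS12G0117700 on chromosome 12 entered with 3.31, 3.11 and 4.31 FPKM in nf-yc11 and no read in WT, which made it at least 26.4-fold higher. A like level in FPKM thus went with very different contrasts. On the WT side, OS02G0207500 on chromosome 2 entered with 3.44, 3.52 and 3.30 FPKM in WT and no read in nf-yc11, at least 16.2-fold higher in WT. Novel00368 entered with 3.89, 3.33 and 4.03 FPKM in WT against 0.204, 0.134 and 0.168 FPKM in nf-yc11.

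Just outside on the nf-yc11 side were OS02G0572300, at 2.68, 2.84 and 2.72 FPKM in nf-yc11, and OS01G0280500, at 3.61, 3.19 and 2.64 FPKM. Both were at most 0.386 FPKM in the WT libraries. Just outside on the WT side were EPlOSAG00000011214, at 7.91, 5.57 and 2.98 FPKM in WT, and OS12G0129300, at 2.93, 3.45 and 3.90 FPKM. The former had a smallest length of 23 bases, at which its values rest on very few reads. A further 31 and 27 features were off in WT or in nf-yc11, respectively, with a lowest on value between 2 and 3 FPKM. Another 74 and 70 passed the on limit in nf-yc11 or in WT while their highest off value lay between 1 and 2 FPKM. Features thus lay close to both limits on either side.

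**Figure D2:**
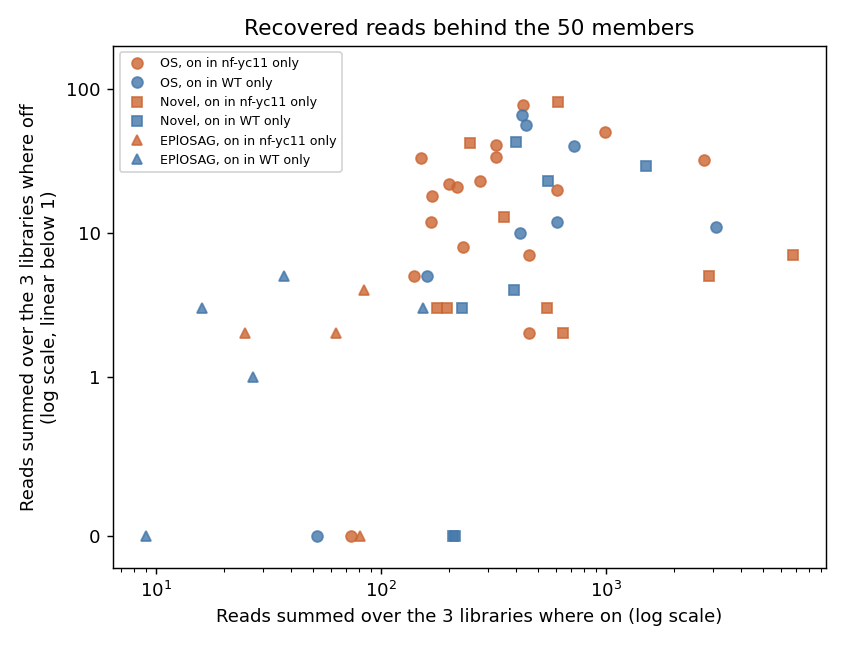
Reads recovered from the FPKM steps for the 50 members, summed over the 3 libraries where the feature was on (x axis, logarithmic) and over the 3 where it was off (y axis, logarithmic and linear below 1), by ID prefix and direction. EPlOSAG members rest on 9 to 154 reads where on, and 6 members have 0 reads where off.

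Off rarely meant that no read was found. In the off group, 6 of the 50 members had 0 reads in all 3 libraries, namely 2 on in nf-yc11 only (OS12G0117700 and EPlOSAG00000004188) and 4 on in WT only (OS02G0207500, Novel00651, Novel00261 and EPlOSAG00000011554). Novel00651 and Novel00261 were at least 65.0-fold and 66.2-fold higher in WT, with 209 and 213 reads there. Reads were present in every off library for 19 of the 30 members on in nf-yc11 only and 11 of the 20 on in WT only. For the members with reads in the off group, the ratio in reads ran from 4.91 to 1040 with a median of 25.7 on the nf-yc11 side and from 4.97 to 260 with a median of 27.6 on the WT side.

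The depth behind a member depended on its kind. The 25 OS members had a median of 324 reads summed over their on libraries (52 to 3071) and a median length of 960 bases. The 16 N members had a median of 394.5 reads (177 to 6790) and 1363 bases. The 9 EPlOSAG members had a median of only 37 reads (9 to 154) and 128 bases, the fewest reads of the 3 kinds. In an on library, 5 members had under 10 reads, all of them EPlOSAG.

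Most members stayed within the limit of counting noise where they were on. Among those with an on mean under 10 FPKM, 1 of 23 on in nf-yc11 only and 3 of 16 on in WT only exceeded the 95% limit of counting noise across their 3 libraries. Over all features of that level the shares were 12.7% in nf-yc11 and 10.5% in WT. By coefficient of variation, members of that level varied more than all features of that level. The medians were 10.3% against 8.40% in nf-yc11 and 13.5% against 7.94% in WT. Features with few reads can hardly exceed the limit, so staying within it does not show that a member was steady. Including the higher members, 4 in each direction exceeded the limit. On the nf-yc11 side these were Novel00754, OS02G0216400, OS04G0600200 and EPlOSAG00000019156, a feature of 178 bases at 13.6, 5.99 and 9.59 FPKM in nf-yc11. On the WT side they were OS05G0329100, Novel00076, Novel00494 and OS06G0314300.

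**Figure D3:**
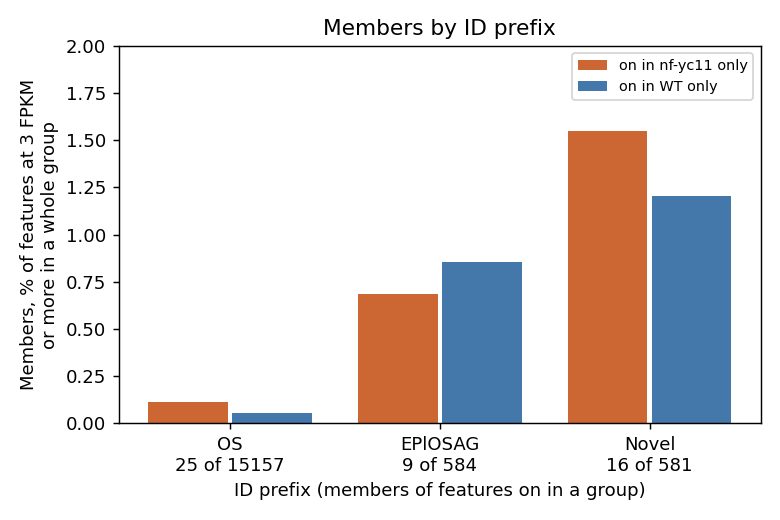
Members as a percentage of the features at 3 FPKM or more in all libraries of a group, by ID prefix (x axis) and direction (bars, from 0). OS features have the lowest share although they are the most numerous, with 25 members of 15157, and N features (marked by their prefix on the axis) the highest, with 16 members of 581.

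Features outside the RAP loci made up 25 of the 50 members. By prefix, 17 OS, 9 N and 4 EPlOSAG features were on in nf-yc11 only, and 8 OS, 7 N and 5 EPlOSAG features in WT only. OS features were 92.9% of all features on in a group and 50% of the members, whereas N features were 3.56% and 32%. Put the other way, 0.165% of OS features on in a group were members, 1.54% of EPlOSAG features and 2.75% of N features. The prefixes differ in level, with a median higher group mean of 14.5 FPKM for OS, 12.1 for EPlOSAG and 7.69 for N features. Among features with a higher group mean under 10 FPKM the shares were 0.361%, 2.46% and 3.66%, in the same order. No member had the prefix ENSRNA, of which 912 features were listed and none was on in a group.

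Among the OS members, 5 of 25 (20%) had numbers that do not end in 00: OS10G0381601, OS01G0182832 and OS09G0502150 on in WT only, and OS01G0845950 and OS02G0538550 on in nf-yc11 only. Of all OS features on in a group, 6.71% had such numbers. As with the prefixes, these shares are descriptions of a set chosen on its values and were not tested.

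**Figure D4:**
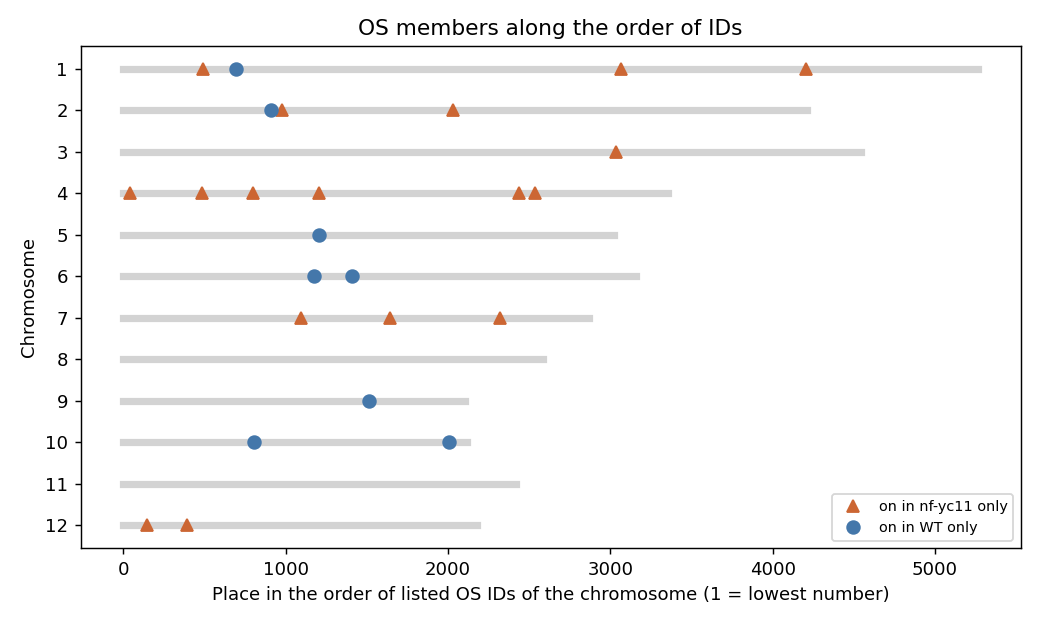
Place of the 25 OS members in the order of the OS IDs listed for each chromosome (x axis, rank of the ID, grey bars as long as the number listed), with triangles for features on in nf-yc11 only and circles for those on in WT only. Chromosome 4 holds 6 triangles spread over ranks 44 to 2535, and no members are next to each other.

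The OS members were scattered over 10 of the 12 chromosomes. Members on in nf-yc11 only lay on 6 chromosomes and those on in WT only on 6, and only chromosomes 1 and 2 held both. Chromosomes 8 and 11 held none, of 1015 and 740 OS features on in a group. Chromosome 4 held 6 of the 17 OS members on in nf-yc11 only (35.3%) and none on in WT only, while it held 8.38% of the OS features on in a group. Chromosome 7 held 3 and chromosome 12 held 2, likewise all on in nf-yc11 only, and chromosomes 6 and 10 held 2 each, all on in WT only. These counts are small and are given without a test.

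No OS member stood next to another along the order of IDs (0 of 25), where 0.0661% of the 37830 listed OS IDs were members. At so small a share, adjacent members would be rare under any placement without clusters, so the 0 is no sign of spacing. The closest pair, OS02G0207500 and OS02G0216400, was 69 IDs apart on chromosome 2 and went in opposite directions, the former on in WT only and the latter on in nf-yc11 only. The next closest, OS04G0586500 and OS04G0600200, was 97 IDs apart on chromosome 4, and both were on in nf-yc11 only. For the 22 OS members that shared a chromosome with another, the nearest was a median of 314 IDs away, and 3 (OS03G0663900, OS05G0329100 and OS09G0502150) were alone on theirs. The 6 members of chromosome 4 stood at ranks 44, 486, 800, 1209, 2438 and 2535 of 3357 and so did not share one stretch.

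The IDs that flank the members were like other OS IDs in level. Of the 50 IDs just before or after an OS member, 12 (24%) were listed at 0 in all 6 libraries and 24 (48%) had a mean of at least 1 FPKM. Over all OS IDs listed, these shares were 19.8% and 51.7%. OS10G0381601, for example, with its 73.1 ± 1.18 FPKM in WT (SD, n = 3), lay between OS10G0381200 and OS10G0381700, both at 0 in all libraries and both named after their values were seen.

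Changes in the neighbourhood were tested on features that the rule did not choose. Within 5 IDs on either side of the OS members lay 250 other OS features, of which 134 had a mean of at least 1 FPKM and were tested (limma on log2(FPKM + 1), fitted to all features). Of these, 69 changed at an adjusted p under 0.05, 48 higher and 21 lower in nf-yc11. That was 51.5%, where 49.1% of all 22093 features tested were called, 29.8% higher and 19.3% lower. Their median log2 change was 0.12, against 0.06 over all features tested. A change of at least 2-fold was called for 8 of the 134 neighbours (5.97%), where the share over all features was 7.86%. The neighbours are all OS features and no members. Of all 19535 tested OS features that are no member, 50.5% were called, 30.9% higher and 19.6% lower, and 6.21% at 2-fold or more. Over this window of 5 IDs, the share of neighbours called was thus near that of all features.

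Around members on in nf-yc11 only, 33 of 91 tested neighbours were higher in nf-yc11 and 13 lower. Around members on in WT only, 15 of 43 were higher in nf-yc11 and 8 lower, or 34.9% and 18.6%. The shares around members on in nf-yc11 only were 36.3% and 14.3%, and those over all features tested 29.8% and 19.3%, so calls were more often higher than lower in all of these. Directly next to a member, 16 of 24 tested IDs changed (66.7%), 12 higher (50%) and 4 lower (16.7%), a larger share than over all features (49.1%) from few IDs. A test of the difference between these shares was not made.

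**Figure D5:**
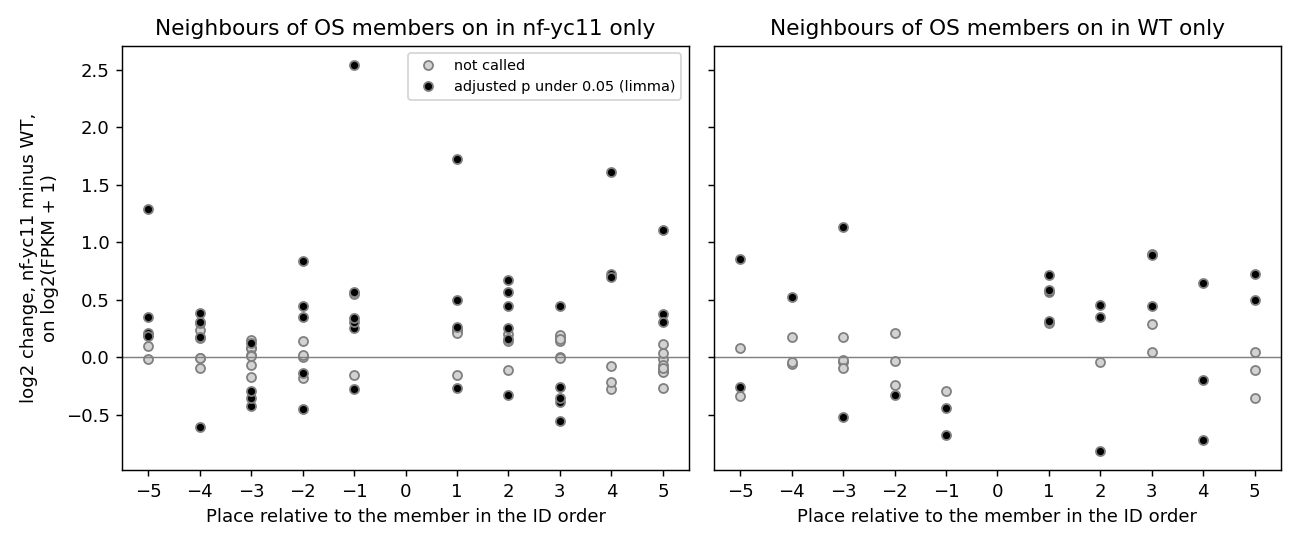
log2 change (nf-yc11 minus WT, on log2(FPKM + 1)) of the 134 tested OS features within 5 IDs of an OS member, by their place relative to it in the ID order. Black points passed an adjusted p under 0.05 (limma); most lie within 1 of zero on both sides, and the largest changes, 2.54 and 1.73, are directly beside members on in nf-yc11 only.

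The largest changes among the neighbours were directly beside members. OS07G0625500, the ID before OS07G0625600, stood at 1.24, 0.836 and 1.06 FPKM in WT and at 11.5, 10.1 and 10.96 FPKM in nf-yc11 (log2 change 2.54 ± 0.10 SE, adjusted p = 9.2e-06, limma). The mean was 10.4-fold higher in nf-yc11, near the level of OS07G0625600, and it missed the rule because WT replicates 1 and 3 were above 1 FPKM. OS04G0108101, the ID after OS04G0107900, stood at 0.116, 0.327 and 0.175 FPKM in WT and at 3.40, 3.20 and 2.40 FPKM in nf-yc11 (log2 change 1.73 ± 0.15, adjusted p = 0.000166, limma). It missed the rule because of nf-yc11 replicate 3 alone, and without that library 2 OS members were next to each other. In both places a pair of successive IDs was low in WT and higher in nf-yc11. Whether the features of a pair overlap, or share reads through similar sequence, cannot be told apart from separate expression, since the table gives no positions.

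Farther from a member were the other large changes. OS04G0587100, 4 IDs after OS04G0586500, was already high in WT, at 103, 104 and 94.8 FPKM, and stood at 326, 293 and 307 FPKM in nf-yc11 (log2 change 1.61 ± 0.05, adjusted p = 5.48e-06, limma). OS01G0154300, 5 IDs before OS01G0155000, stood at 1.23, 2.37 and 1.15 FPKM in WT and at 5.99, 4.01 and 5.75 FPKM in nf-yc11 (log2 change 1.29 ± 0.21, adjusted p = 0.00253, limma). In both, the groups did not overlap, and other IDs lay between them and the member.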

How the data were processed

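RNA was sequenced from endosperm of 3 WT and 3 nf-yc11 libraries, grouped by the titles in the labels. The authors deposited 1 table of FPKM values. Per the submitters' processing notes, CASAVA 1.7, HISAT2 2.0.5 and DESeq were named, without their roles. The counting tool, genome build and annotation were not given in the sources used here, and positions are therefore not reported. The members, lists and tests were chosen with earlier results of these data known.

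Whole reads and lengths were recovered from the FPKM steps for 36189 of 36189 features above 0 (within 0.0001 of a whole number), taking the smallest whole length. Ratios in reads are per library total, with exact Clopper-Pearson 95% intervals, and a floor of 3 reads over the group stands for 0. Folds given as at least a value rest on that floor and leave out the counting error of the on reads. Neighbours were tested with limma 3.58.1 (R 4.3.3, variance trend) on log2(FPKM + 1), a scale that understates the change of low features. Every feature whose mean reached 1 FPKM entered, with Benjamini-Hochberg adjustment. Both steps were run on simulated data as a check of the code. The simulation of reads used features longer than any EPlOSAG member and scored only those above a minimum of reads. It does not check the recovery at such short lengths or few reads. The limma simulation changed far fewer features than were called here, so it does not check calls at that share. Members got no test, since their values chose them. Counting noise among 3 libraries was judged by chi-square with 2 degrees of freedom. Between same-group libraries 10.5% to 19.0% of features lay beyond the 95% limit of counting noise, so each library counted as 1 replicate.

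Named features were, per direction, the 6 OS, 2 EPlOSAG and 2 N members with the highest on mean and the 2 just inside and outside the threshold, with the 4 largest called neighbours. Others printed by ID belong to counts of 5 or fewer, or illustrate a place in the order, and were named after their values were seen. Of 13 marker symbols paired with IDs from general knowledge, 8 were found in the RefSeq table, all on the chromosome the ID gives. AGPL2, RPBF, OLE16, NF-YC11 and NF-YC12 were not in it. The other endosperm markers stood, in WT and nf-yc11, at mean levels of 12600 and 10866 FPKM (GluA2), 1265 and 883 FPKM (AGPL2), and 543 and 539 FPKM (RPBF). Alternatives were other thresholds, scalings, filters, pseudocounts and windows, voom on recovered reads, the replicate number as a block and leaving out each library. Python 3.11.15, numpy 2.4.6, pandas 2.3.3, scipy 1.17.1 and matplotlib 3.10.9 were used.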

Additional observations from a re-analysis of the deposited data

How the results depend on the processing

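The number of members followed the thresholds, by construction. With an off limit of 0.5 FPKM, 15 were on in nf-yc11 only and 12 in WT only, and with no read where off 2 and 4. With an on limit of 5 FPKM there were 13 and 10, and with 10 FPKM 4 and 3. Size factors gave 29 and 22, sharing 49 of the 50 members, and quantile normalization kept all 50. A minimum of 10 reads in each on library, chosen after seeing the data, left 45. Leaving out 1 library gave 33 to 38 on in nf-yc11 only and 25 to 32 in WT only (32 without nf-yc11 replicate 1). OS members next to another numbered 0 to 2 when 1 library was left out (2 without nf-yc11 replicate 3) and 0 in every other alternative run. Called neighbours numbered 53 to 71 of 92 to 208 tested over the filters, scalings, pseudocount, replicate block and left-out libraries. With voom they were 79 of 134, or 59.0% against 52.9% of all features. Without a filter their share was 31.7% against 29.1%, and with a mean of at least 5 FPKM 65.2% against 61.4%. Without nf-yc11 replicate 2 it was 49.6% against 43.8%. It was below the share over all features without WT replicate 2 (39.3% against 41.0%) and without nf-yc11 replicate 1 (42.2% against 43.7%). Within 1 ID of a member, 16 of 24 neighbours were called (66.7%), and within 20 IDs 239 of 497 (48.1%), beside 49.1% of all features. The replicate block gave 62 called neighbours (46.3%) and 9948 called features (45.0%). Between the groups, libraries of equal number had deviations correlated at −0.05, 0.004 and −0.05, so the shared numbers were not taken as pairs. The 4 named neighbours kept direction and call in the 50 refits that tested them (highest adjusted p = 0.0142, limma). The 9 EPlOSAG members rest on a median of 37 reads, which limits the precision of their values.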

Other observations

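Among the 16 N members, 4 picked after their IDs were seen carried numbers near each other (Novel00333, Novel00353, Novel00368 and Novel00379). Of these, 3 were on in nf-yc11 only and Novel00368 in WT only, where 9 of all 16 N members were on in nf-yc11 only. Other N members were at least as close in number and went in opposite directions. Novel01374 was on in nf-yc11 only and Novel01367 in WT only, and likewise Novel00065 in nf-yc11 only and Novel00076 in WT only. What the numbers of N features encode is not given in the sources used here, and the grouping was not tested.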
